A study of Mus musculus with 2 samples.

Results

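The E proteins Tcf3, Tcf4 and Tcf12 and their inhibitors Id1, Id2 and Id3 were examined for accessible chromatin in regulatory T (Treg) cells. The 6 genes were taken from a fixed list, and a region was counted for a gene if it overlapped the gene body extended by 5 kb, or if the protein-coding start nearest to its summit, within 100 kb, belonged to the gene. This gave 21 of the 29415 accessible regions of the series, 9 at the E protein genes and 12 at the Id genes. Accessibility had been measured by ATAC-seq, in which the transposase Tn5 inserts adapters into open DNA. The only group was inflammation-experienced Treg cells from 1 adult male mouse, 6 months old, of the strain Foxp3CreERT2 x Rosa26YFP, in which Cre is driven by the Foxp3 gene. The 2 samples were technical replicates from that mouse, and the labels trace the cells to a bone marrow hematopoietic cell but do not say which inflammation the cells had met or how they were sorted. No comparison between conditions or animals could be made, and the spread between libraries is unknown because the deposited peaks pool them.

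E proteins are basic helix-loop-helix transcription factors that bind E-boxes, short DNA sites of the form CANNTG, as homodimers or as heterodimers with each other. Id proteins carry the helix-loop-helix but no basic region, so they pair with E proteins and keep them off DNA. In T cells the balance sets thresholds of thymocyte development, Id2 and Id3 hold E protein activity down in mature cells, and Treg cells that lack both are poorly maintained. Tcf12, which encodes HEB, also gives a shorter protein, HEBAlt, from a start inside the gene.

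DNA under the summits is shown first, since the E-box is the site these proteins bind. The sequences are GRCm38.p6, 101 bases centred on the summit (84 at Id1, where the transcribed bases were left out), 5′ to 3′ on the strand of the gene, with every match to CANNTG in capitals. Names give the distance of the summit from the nearest protein-coding start of the gene, negative upstream. Of them, 7 are those away from protein-coding starts that hold CAGCTG or CAGGTG, the forms that E protein dimers prefer. The other 4 are the highest regions of Tcf3, Id2 and Id3 and the region of Id1.
Tcf3 −12756 bp, chr10:80446353-80446453, minus strand: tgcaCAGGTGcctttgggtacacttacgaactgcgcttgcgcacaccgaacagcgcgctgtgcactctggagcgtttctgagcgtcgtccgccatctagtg
Tcf12 12433 bp, chr9:72097241-72097341, minus strand: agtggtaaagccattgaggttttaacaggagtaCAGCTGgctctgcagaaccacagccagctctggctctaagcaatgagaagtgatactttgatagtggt
Tcf12 −21386 bp, chr9:72133207-72133307, minus strand: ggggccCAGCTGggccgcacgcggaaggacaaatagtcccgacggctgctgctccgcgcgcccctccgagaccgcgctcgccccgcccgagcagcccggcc
Id2 3642 bp, chr12:25092395-25092495, minus strand: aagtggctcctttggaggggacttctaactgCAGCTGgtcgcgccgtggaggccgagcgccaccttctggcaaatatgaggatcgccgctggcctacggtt
Id2 −93392 bp, chr12:25190482-25190582, minus strand: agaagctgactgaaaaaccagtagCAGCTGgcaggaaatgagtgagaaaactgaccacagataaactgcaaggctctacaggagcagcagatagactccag
Id3 1272 bp, chr4:136144719-136144819, plus strand: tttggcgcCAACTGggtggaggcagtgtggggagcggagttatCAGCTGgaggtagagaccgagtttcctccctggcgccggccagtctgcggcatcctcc
Id3 4505 bp, chr4:136147952-136148052, plus strand: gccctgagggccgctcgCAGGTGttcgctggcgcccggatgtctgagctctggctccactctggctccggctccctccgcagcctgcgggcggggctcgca
Tcf3 −420 bp, chr10:80434017-80434117, minus strand: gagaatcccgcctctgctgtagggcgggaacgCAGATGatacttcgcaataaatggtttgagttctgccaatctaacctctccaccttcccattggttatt
Id2 −20916 bp, chr12:25118006-25118106, minus strand: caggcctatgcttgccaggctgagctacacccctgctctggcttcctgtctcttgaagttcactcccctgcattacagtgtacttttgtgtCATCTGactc
Id3 −36478 bp, chr4:136106969-136107069, plus strand: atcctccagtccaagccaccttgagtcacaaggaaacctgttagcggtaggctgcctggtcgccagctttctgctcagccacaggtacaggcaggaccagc
Id1 −34 bp, chr2:152736167-152736250, plus strand: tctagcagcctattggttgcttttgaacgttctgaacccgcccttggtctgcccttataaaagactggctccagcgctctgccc

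Each of the 6 genes had a promoter region, meaning a region within 1000 bp of one of its protein-coding starts, and 4 of them had regions farther away as well. Over the genome, 49.7% of 21853 protein-coding genes had a promoter region, and 63.2% had 1 region or more by the rule used here. Id2 had 6 regions, Tcf12 and Id3 had 5 each, Tcf3 had 3, and Tcf4 and Id1 had 1 each. The median gene had 1 region and the mean was 1.63. As many regions as Id2 or more were counted for 5.22% of genes, as many as Tcf12 or Id3 for 7.69%, and as many as Tcf3 for 21%. These shares take no account of gene length. Tcf12 spans 269184 bp, and among the 766 protein-coding genes of 200 to 500 kb the third quartile was 5 regions. The numbers follow no division between E proteins and inhibitors, since each side had a gene with a single region and a gene with 5 or more. Of the 21 regions, 14 touched a gene body or its 5 kb flanks, and 20 had their nearest start in the member gene.

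**Figure D1:**
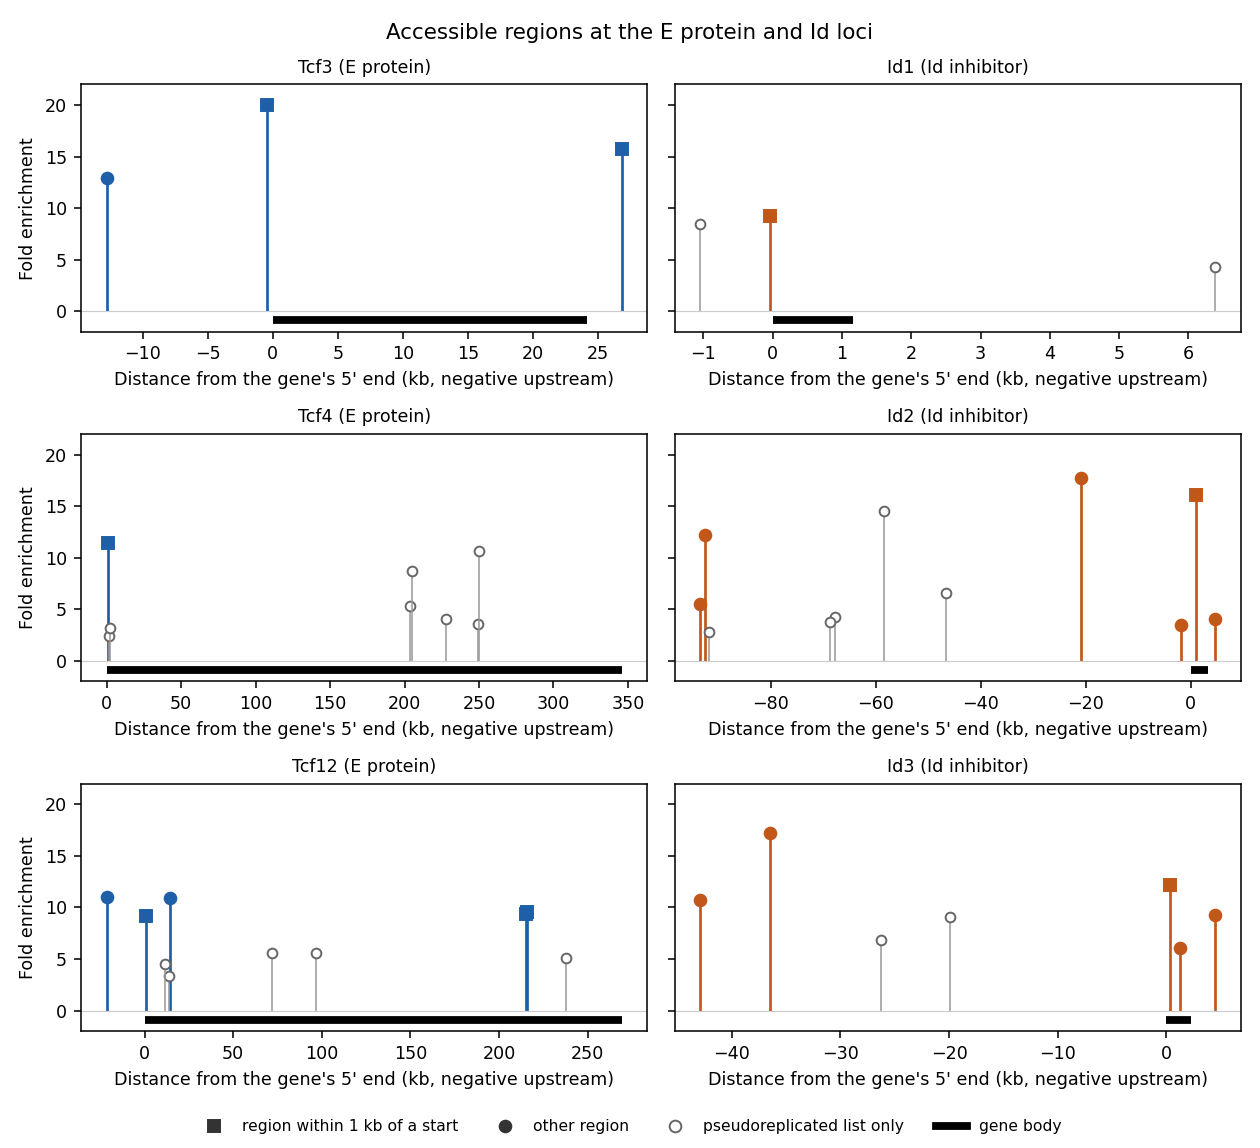
Fold enrichment (y axis) of each accessible region against the distance of its summit from the 5′ end of the gene (x axis, kb), 1 panel per gene, with squares for regions within 1 kb of a protein-coding start, filled circles for other regions, open circles for regions found in the pseudoreplicated list alone, and a black bar for the gene body. Id2 and Id3 have regions on both sides of a short gene and far upstream, Tcf4 has 1 filled symbol over a body of 345724 bp, and the right-hand square of Tcf3 is the promoter of the neighbouring gene Uqcr11.

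Tcf3, the E protein gene with a known role throughout lymphocyte development, had the highest region of the 6 loci at its promoter. The gene lies on chromosome 10 (80409514 to 80433647, minus strand). Its promoter region, chr10:80433541-80434479, was 20-fold enriched over background with a −log10 p of 339, and the larger of its 2 summits stood at −420 bp and the smaller, 12.1-fold, at −102 bp. That fold was at percentile 85.0 of all 29415 regions and at percentile 76.0 of the 10802 regions with their summit within 1000 bp of a start. A distal region at −12756 bp, chr10:80446240-80446679, was 12.9-fold enriched, with a −log10 p of 43.4. The other region, chr10:80406513-80407347 (15.7-fold), fell in the 5 kb beyond the 3′ end of Tcf3, but its summit lay 34 bp upstream of Uqcr11, a gene of the mitochondrial respiratory chain. The upstream group of 5 starts shared the promoter region, whereas the other 4 of the 9 annotated Tcf3 starts, which lie 2565 to 11787 bp inside the gene, had no region within 1000 bp in either list.

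Tcf12 had 5 regions, all of moderate height, and 3 of them lay at starts. The gene occupies chromosome 9, 71842688 to 72111871, on the minus strand. The region over its upstream starts, chr9:72110775-72112165, was 1391 bp wide, the widest of the 21, with 3 summits of 9.19-, 5.19- and 8.46-fold. Of the 11 annotated starts, 7 lay within 1000 bp of it. A pair of narrow regions lay at the starts of 2 shorter transcripts, 215475 and 215782 bp inside the gene: chr9:71895895-71896235 (9.60-fold, −log10 p 28.1) and chr9:71896402-71896735 (9.35-fold, −log10 p 27). Their −log10 p placed them at percentiles 2.07 and 1.73 of promoter regions, the lowest of the 21. The pair also differed from the upstream promoter in sequence: the ratio of observed to expected CpG was 0.0729 and 0.157, at percentiles 0.5 and 2.19 of promoter regions, against 0.988, at percentile 96.0, upstream. An intronic region at 12433 bp (chr9:72096990-72097453, 10.96-fold) and an intergenic one at −21386 bp (chr9:72132677-72133848, 11-fold, 4 summits) were the highest of the locus. The intergenic one had the CpG content of a promoter (ratio 0.747, the median of promoter regions being 0.744), but the nearest annotated start of any kind, that of a pseudogene, was 4670 bp away.

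Tcf4, the E protein gene best known for plasmacytoid dendritic cells and neurons, had 1 region in a gene body of 345724 bp on chromosome 18 (69343356 to 69689079, plus strand). It was the promoter region chr18:69343985-69344684, 11.4-fold enriched at a −log10 p of 140, with its summit 70 bp upstream of a start. A single region in a gene of that size was common, since 53.3% of the 766 protein-coding genes of 200 to 500 kb had 1 region or none, with a median of 1. Of the 44 annotated starts of Tcf4, 5 lay within 1000 bp of the region. The pseudoreplicated list, which was less strict, added 7 weaker regions. The highest of these, chr18:69593208-69593774, had a fold enrichment of 10.7 and lay within 1000 bp of 6 starts of shorter transcripts, from 249632 to 250826 bp inside the gene. Its −log10 p was 26.8 in the first and 9.74 in the second of the sets that were ranked against each other, with an irreproducible discovery rate (IDR) of 0.202. Of the other 6, the highest was intronic at 8.75-fold (IDR 0.190), and the rest ran from 2.39- to 5.31-fold, all at an IDR of 0.357. Among these was a region of 3.22-fold within 1000 bp of 7 starts, 2363 to 3004 bp inside the gene.

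Id2, the inhibitor linked to effector and innate lymphocytes, had the greatest number of regions and the greatest −log10 p. The gene spans 3342 bp of chromosome 12 (25093799 to 25097140, minus strand). Its promoter region, chr12:25095785-25096561, had a −log10 p of 579, at percentile 98.7 of all regions, and a fold enrichment of 16.1, at percentile 67.4. The summit lay 93 bp upstream of the start of the shorter transcripts, in an untranslated exon of the longer one. On either side stood a low and narrow region, at −1779 bp (chr12:25098820-25099028, 3.48-fold, −log10 p 34.0) and at 3642 bp (chr12:25092325-25092545, 4.03-fold, −log10 p 43.4). Both were low for the series in fold and in −log10 p.

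Farther upstream of Id2 the intergenic region at −20916 bp, chr12:25117885-25118448, had the highest fold of the Id genes, 17.7, at percentile 83.0 of regions away from starts. A pair of regions about 90 kb upstream, chr12:25189186-25189948 (12.2-fold, −log10 p 172) and chr12:25190364-25190842 (5.55-fold), lay over the long noncoding gene Gm36287. Both would drop out with a reach of 50 kb. Between these and the gene the pseudoreplicated list added chr12:25155373-25155943, at −58487 bp with a fold of 14.5, higher than every counted region of the locus except those at −93 and −20916 bp. It had a −log10 p of 18.5 in the first set and 46.5 in the second, and an IDR of 0.105.

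Id3, an inhibitor induced by T cell receptor and TGF-beta signals, had 5 regions around a gene of 2259 bp on chromosome 4 (136143497 to 136145755, plus strand). The promoter region chr4:136143591-136144282 was 12.2-fold enriched with a −log10 p of 179, and its main summit lay 286 bp downstream of the start. A second region inside the gene, chr4:136144583-136144935, had a fold of 6.03, and another, 4505 bp from the start and beyond the 3′ end (chr4:136147569-136148152), had 9.28 with a −log10 p of 118. Upstream, 2 intergenic regions lay at −36478 bp (chr4:136106709-136107235, 17.2-fold) and −42884 bp (chr4:136100148-136101107, 10.7-fold). The former was the highest region of the locus and, like the region at −20916 bp of Id2, exceeded the promoter of its gene in fold but not in −log10 p (94.3 against 179, and 70.1 against 579 at Id2).

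Id1, a target of BMP signals in many tissues, had a single region, chr2:152736062-152736764, at the start of its gene of 1160 bp on chromosome 2 (152736251 to 152737410, plus strand). Its fold enrichment of 9.19 and −log10 p of 40.9 were at percentiles 17.0 and 6.50 of promoter regions. It was the lowest of the 6 upstream promoters in −log10 p, and in fold it was level with the upstream promoter of Tcf12 (9.19). The pseudoreplicated list added chr2:152735050-152735319, at −1044 bp with a fold of 8.41 and an IDR of 0.101, and a region of 4.30-fold at 6390 bp.

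Across the 21 regions the fold enrichment ran from 3.48 to 20, with a median of 11 (95% interval of the median 9.19 to 12.9, from binomial order statistics). All 29415 regions had a median of 13.1. At the E protein genes the median was 11 (9 regions, 9.19 to 20), and at the Id genes 10 (12 regions, 3.48 to 17.7), so the ranges overlapped and the Id genes reached lower. The 9 regions near a start had a median of 11.4, against 15.4 for promoter regions of the genome. The 12 others had a median of 10.9, against 12. The 9 near a start and the 9 at the E protein genes both include the Uqcr11 promoter region beside Tcf3 (15.7-fold). More than 1 summit was found in 10 of the 21, and in 55.9% of all regions. Of the 6 genes, Tcf3 and Id2 had a promoter region in the upper 50% of all regions by fold. Height and −log10 p need not rank regions alike: the regions beside the Id2 promoter were at percentiles 0.592 and 1.39 by fold and 10.5 and 18.7 by −log10 p, and that at −20916 bp at 75.9 and 38.8. What background the fold was taken over is not given, and its part in these ranks was not tested.

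**Figure D2:**
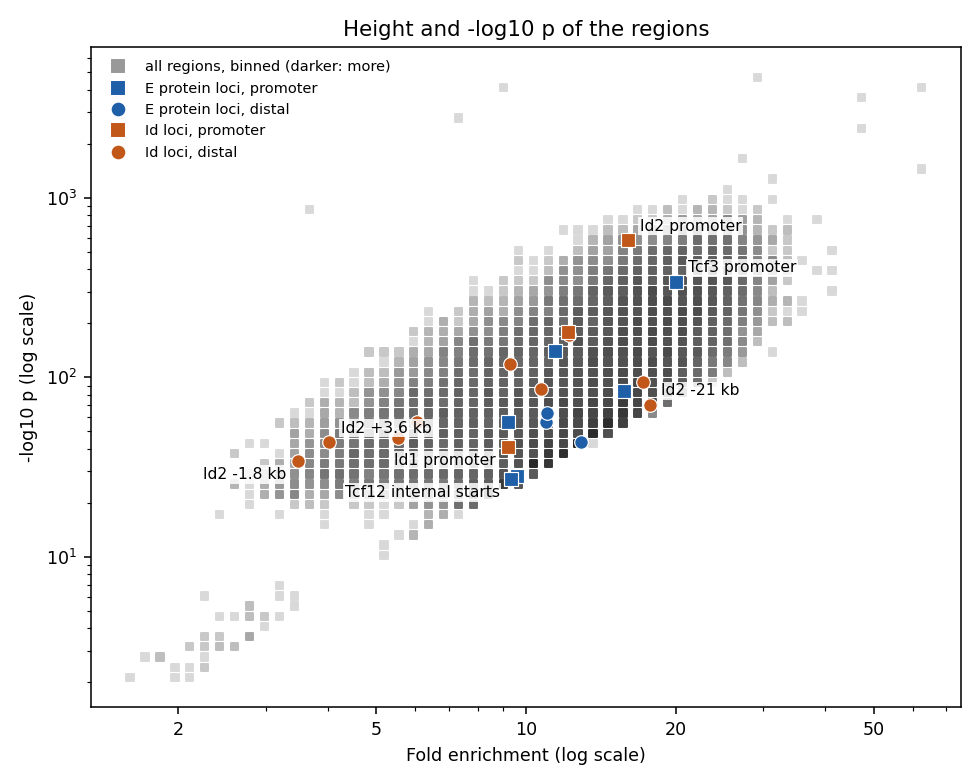
Fold enrichment (x axis, log scale) against −log10 p (y axis, log scale) for the 21 regions, with squares near starts and circles elsewhere, blue for E protein and orange for Id loci, over the binned density of all 29415 regions in grey. The Id2 promoter stands near the top at −log10 p 579, the regions on either side of it at the left edge, and the internal starts of Tcf12 at the lower edge.

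Away from starts, 7 of the 12 regions had CAGCTG or CAGGTG within 50 bp of the summit, and near starts 0 of 9 had either (both strands were searched; the reverse of CAGGTG is CACCTG, and both forms are included in CANNTG). The 7 were spread over Tcf3 (1), Tcf12 (2), Id2 (2) and Id3 (2), 5 with CAGCTG and 2 with CAGGTG, as in the sequences above. Only protein-coding starts count in this division. The summit of Id3 1272 bp, among the 7, lay 205 bp from the start of an Id3 transcript not annotated as protein-coding. This makes 58.3% of the 12 (95% exact binomial interval 27.7 to 84.8%), where 15.8% of all 18613 regions away from starts had a match. For all 21 the share was 33.3% (14.6 to 57.0%) and for all regions 13.7%. With counts this small, the 0 of 9 near starts allows a share of up to 33.6%. Of promoter regions of the genome, 10.2% had a match. These shares were read at the highest summit of each region, the 0 of 9 included. With every summit counted singly, 13 of 34 (38.2%) had CAGCTG or CAGGTG, against 13.7% of all summits. Near starts, the lower summits of Id1 at 363 bp and Id3 at 541 bp had an E-box of some form. Over their whole width, the promoter regions held 3 of the E protein forms at Id3, 2 at Id1, 2 at the upstream starts of Tcf12 and 1 at Id2. Those of Tcf3 and Tcf4 held 0. At the internal starts of Tcf12 the region at −24 bp held 1 and that at −171 bp held 0, and the Uqcr11 promoter region held 1. All of these lay outside the 50 bp window. A whole-width share over all promoter regions is not given here. Any E-box was present in 12 of the 21 (57.1%, 34.0 to 78.2%), against 37.9% of all regions. Within 25 bp of the summit the E protein forms were found in 3 of the 21 (14.3%), and in 7.05% of all regions.

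Base composition of the distal regions was not typical of the genome, and how often a short motif is met depends on it. GC content was 43.8 to 76.1% in the 12, with a median of 54.1%, against a median of 47.6% in all regions away from starts. In a comparison chosen after the values were seen, CAGCTG or CAGGTG was present in 18.9% of the 2706 distal regions with a GC content of 54.1% or more, and in 17.1% of the 14133 within the range of the 12. A ratio of observed to expected CpG above the third quartile of distal regions (0.357) was found in 6 of the 12, among them Tcf3 −12756 bp (0.723), Id3 4505 bp (0.686), Id3 1272 bp (0.651) and Id2 −1779 bp (1.00). The 12 regions are not independent, since 9 of them belong to Id2 and Id3, and the intervals cover counting error alone. A match is a description of the DNA, and binding by E proteins was not measured.

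**Figure D3:**
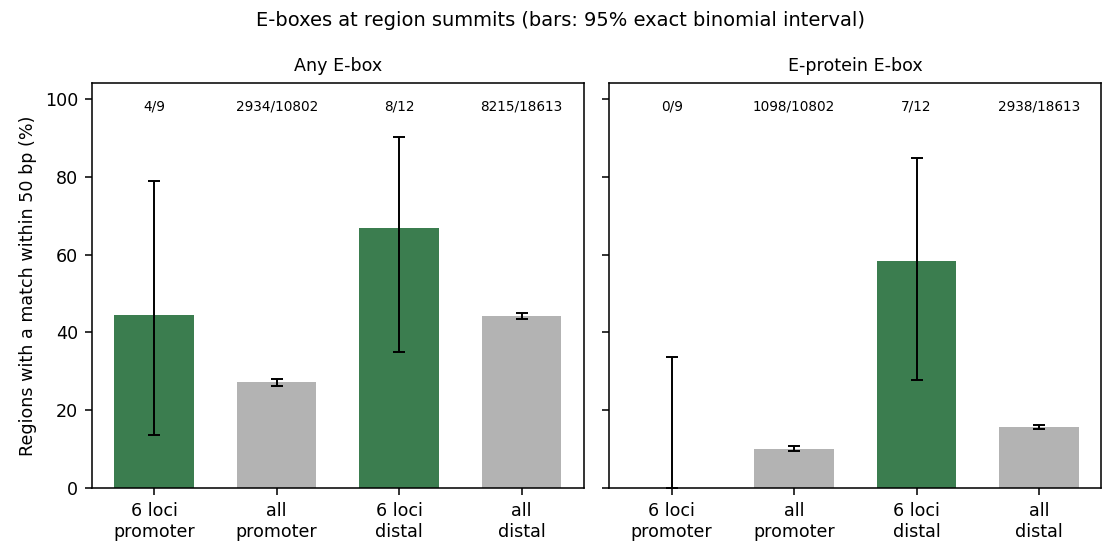
Share of regions (y axis, %) with any E-box (left) and with CAGCTG or CAGGTG (right) within 50 bp of the summit, for regions near starts and away from them, green for the 6 loci and grey for all regions, with the counts above and 95% exact binomial intervals as bars. The green bar for E protein forms away from starts stands at 58.3%, over a wide interval, and the corresponding grey bar at 15.8%.

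Other motifs under the summits were each seen in few of the regions. The KLF and SP motif GGGCGG was present in 6 of 21 (28.6%, all regions 20.3%). The BMP-responsive SMAD motif GGCGCC was present in 4 (19%, all regions 5.17%), of which 3 were at Id genes: Id2 −1779 bp, Id3 1272 bp and Id3 4505 bp. The other was the Uqcr11 promoter region beside Tcf3. Over the genome GGCGCC was present in 9.6% of promoter regions and 2.6% of regions away from starts. GC content of the 3 Id regions was 76.1, 66 and 68.5%, and its part in these matches was not tested. In the printed Id3 1272 bp sequence the SMAD motif starts at base 4, where its last base is the first of the E-box at base 9, and again at base 75, beyond the E-box at base 44. RUNX (TGTGGT) was present in 3 regions (14.3%, all regions 13.7%), namely Tcf12 12433 bp, Id2 −93392 bp and Id3 −42884 bp, all away from starts. Over the genome RUNX was likewise more frequent there, in 18.6% of regions away from starts and 5.11% of promoter regions. In the printed Tcf12 12433 bp sequence the E-box at base 34 is followed by RUNX at base 50 and by the TCF and LEF motif CTTTGAT at base 89. AP-1 (TGANTCA) was found in 3 (14.3%, all regions 6.35%). These were Id3 −36478 bp, at base 22 of the printed sequence, and near starts Tcf12 −171 bp and Tcf12 38 bp. Over the genome AP-1 was present in 2.22% of promoter regions and 8.75% of regions away from starts. ETS (CNGGAAG) was found in 3 (14.3%, all regions 24.7%). None of the 21 had a match to the motifs of NF-kB (GGGNNTTCC), STAT (TTCNNNGAA), EGR (GCGTGGG) or CRE (TGACGTCA), which were present in 3.90%, 2.78%, 1.99% and 1.53% of all regions; 0 of 21 allows a share of up to 16.1%.

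The nearest thing to a replicate in the deposited lists is the pair of sets ranked against each other for the IDR, whose origin is not stated. All 21 regions had −log10 p values within 2-fold of each other in the 2 sets, as did 98.7% of all regions in the list, and the list was itself selected on the IDR. The ratio of the larger to the smaller value ran from 1.03 at Tcf12 −21386 bp to 1.91 at Id3 1272 bp. The promoter of Id2 had 310 and 257, that of Tcf3 165 and 192, and that of Id1 23.4 and 17.5. The pseudoreplicated list held a further 21 regions at these loci: 7 at Tcf4, 5 at Tcf12, 5 at Id2, 2 at Id1, 2 at Id3 and none at Tcf3. Over the genome that list added 23608 regions to the 29415. The median fold of the added regions was 5.05 at these loci and 5.25 over the genome, and 15 of the 21 had the highest IDR in the ranked list, 0.357. In 5 of the 21 the sets were more than 2-fold apart, up to 3.79-fold at −26304 bp of Id3. The values nearest the threshold on either side were an IDR of 0.027 for Id3 1272 bp, inside, and of 0.0694 for a region at −19904 bp of Id3, outside.

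**Figure D4:**
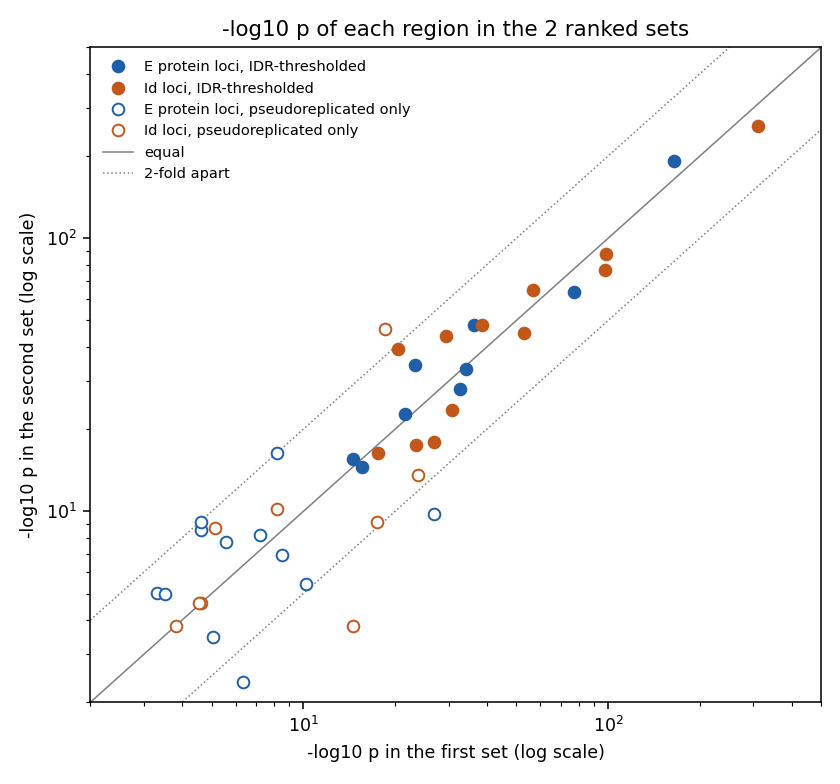
−log10 p of each region in the first set (x axis, log scale) and the second set (y axis, log scale), filled for the 21 regions of the IDR-thresholded list and open for the 21 found in the pseudoreplicated list alone, blue for E protein and orange for Id loci, with lines for equal values and for a 2-fold difference. Filled points lie between the dotted lines, and 5 open points lie outside them.

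Genes that act with E and Id proteins were read from 4 lists, chosen as the members were with earlier results of these data known, and are set beside the 49.7% of all genes with a promoter region. Of the bHLH partners and cofactors of E proteins, 7 of 18 had one, led by Cbfa2t2 (25.8-fold), the acetyltransferase gene Ep300 (16.5), Ldb1 (12.2) and Crebbp (11.1). The 11 without included the fourth Id gene, Id4, and the blood bHLH genes Tal1, Tal2 and Lyl1. Of the genes known as E protein targets in T cells, 9 of 14 had a promoter region, with the highest folds at Cd3e (14.2), Notch1 (10.9) and Cxcr5 (10.7), and the 5 without were Rag1, Rag2, Ptcra, Cd4 and Notch3. Targets in B cells had one at 1 of 8 genes, Pax5 (15.4). Signals upstream of Id genes had one at 10 of 11, the exception being the BMP receptor gene Acvr1; examples are Smad1 (15.1), Smad4 (15), Egr2 (13.3) and Tgfbr2 (13.1), whose locus held 15 regions. None of these values measures expression.

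The label of the cells was checked against markers. All 4 Treg markers (Foxp3, Il2ra, Ctla4 and Ikzf2) and 4 of 5 T cell markers had a promoter region, Cd4 being the exception. Promoter regions were found for 1 of 2 CD8 T cell markers, 1 of 4 B cell markers, 0 of 4 myeloid markers and 1 of 3 erythroid markers. Over all protein-coding genes the share with a promoter region was 49.7%, and each marker list is short. The promoters of the B cell marker Pax5 (15.4-fold) and the erythroid marker Klf1 (16-fold) were higher than those of the Treg markers (4.92 to 11), and that of the CD8 marker Cd8b1 was 8.98-fold. The B cell marker Cd79a had 3 regions by the rule and none at its promoter. None of the 3 had its nearest protein-coding start in Cd79a, so they were counted through the gene body and its 5 kb flanks. The 4 myeloid markers (Csf1r, Lyz2, Itgam and S100a8) had no region. The part of other cells in the results was not tested.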

How the data were processed

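The authors made 3 peak lists on mm10 from 1 filtered alignment, per the descriptions deposited beside each sample. Both samples share the lists, which are read here as a pool of both libraries. The sources used here do not give the aligner, caller, filters, Tn5 shift or IDR threshold. Each deposited peak carries the authors' fold enrichment (a ratio), −log10 p and summit. The deposited score follows the IDR. Read counts were not analysed here, so the depth is unknown.

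Touching or overlapping peaks of the IDR-thresholded list were merged (58138 peaks, 29415 regions). The peak of greatest fold gave the summit and the fold, and −log10 p was the greatest of the merged peaks. Starts came from GENCODE M21 and sequence from GRCm38.p6; 0 regions ran past the end of a chromosome. Python 3.11.15, pysam 0.24.0 and scipy 1.17.1 were used, and the code was tested on simulated data. Intervals are exact binomial (Clopper-Pearson). Members and lists were chosen with earlier results of these data known. The text names the 6 members, their promoter, highest and farthest regions, neighbouring genes, and examples of highest promoter fold from the lists. Sequence of chromosome 18 and of untranslated exons was left out. No test was made, since there was 1 group and 1 biological replicate.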

Additional observations from a re-analysis of the deposited data

How the results depend on the processing

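The count of 21 regions became 42 with the pseudoreplicated list, 34 with summits counted singly and 5 when regions below the median fold were left out (the upper 50%); under the other 7 settings it was 19 to 22. The number of genes with a promoter region, 6, fell to 2 in the upper 50% by fold and was 6 under the other 6 settings. The median fold of 11 was 8.58 in the pseudoreplicated list. The share with any E-box was 33.3% within 25 bp of the summit, where all regions had 21.1%. The share with an E protein form was 14.3% within 25 bp (all regions 7.05%) and 58.3% without promoter regions. The causes were not tested, except that stricter lists and narrower windows hold fewer regions or bases by construction. Of 60 counts for single genes under the alternatives, 47 stayed within 1.5 times the reported count and 13 did not. No paired analysis was possible because there was 1 group and the lists pool both libraries. The unknown depth limits what the absence of a region can show.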
